A study of Arabidopsis thaliana with 18 samples.

Results

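Transcripts of 9 Arabidopsis thaliana genes that encode the reserve proteins of the seed were followed in young roots, where little of these products is normally made. The 9 are the 12S globulins CRA1 and CRU3, the 2S albumins SESA1, SESA2, SESA3, SESA4 and SESA5, and the oleosins OLEO1 and OLEO2. They were picked by gene symbol, and all 9 were found among the 25177 genes of the table. The choice was made with their values in these libraries known, because they differed widely between libraries, so their own levels are given as a description and without a test.

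In a ripening seed the 12S globulins and 2S albumins fill the protein storage vacuoles and serve as nitrogen and sulphur reserves. Oleosins coat the oil bodies and keep them from fusing. The genes are switched on late in embryo development by ABI3, FUS3, LEC2 and LEC1 together with basic leucine zipper factors such as ABI5, and germination shuts them down. The B3 factors bind the RY element and the leucine zipper factors bind G-box or abscisic acid response elements.

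RNA was sequenced from root tips of seedlings raised on sucrose medium in long days after a cold, dark period. The genotypes, each with 3 libraries, were a double mutant gun1-101 rab8d-2, a double mutant nac103-11 rab8d-2, the single mutants rab8d-2, gun1-101 and nac103-11, and the wild type Col-0 (WT). The study asks what GUN1, a plastid signalling protein, and NAC103, a transcription factor, do in roots of rab8d-2, which is deficient in the plastid translation factor EF-Tu. The labels give no treatment other than the growth medium, and ages of 4 days in the titles and 3 days in the design. They call the libraries biological replicates without saying whether these came from separate plates or seed batches, so a p-value measures the spread between these libraries, which may be technical in part.

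Total counts were 22625981 to 23090995 per library. RAB8D, the EF-Tu gene, lay between 5.88 and 18.9 CPM in the libraries that carry rab8d-2 and between 86.1 and 176 CPM in the others (CPM, counts divided by the scaled library size). NAC103 was at 3.25 to 8.35 CPM in nac103-11 rab8d-2, against 11.4 to 29.7 CPM in rab8d-2, and at 0.084 to 0.185 CPM in nac103-11, against 0.539 to 1.99 CPM in WT. GUN1 was at 47.7 to 58.0 CPM in gun1-101 rab8d-2, against 91.6 to 120.2 CPM in rab8d-2, and at 68.4 to 91.7 CPM in gun1-101, against 132.8 to 165.6 CPM in WT. The 10 root markers, among them PLT1, PLT2 and WOX5 of the root stem cell niche, summed to 191.0 to 661 CPM per library. They did not move together. In rab8d-2 against WT, edgeR called PLT2 higher (adjusted p below 0.05), at a log2 fold change of 0.79, where 4.8% of all genes rose. It called COBL9 at -2.14 and CASP1 at -2.10 lower, where 7.5% of all genes fell. CASP1 averaged 63.7 CPM in rab8d-2 and 273 CPM in WT. In gun1-101 rab8d-2 against gun1-101, 3 were called higher and 1 lower, where 28.3% of all genes were called. Over all genes, replicate 3 of nac103-11 rab8d-2 and replicate 3 of WT were unlike the remaining replicates of each genotype. gun1-101 rab8d-2 replicates 1 and 2 were the most alike, with a chi-square of 2.19 per gene where counting noise gives 1 and the other pairs within a genotype gave 12.8 to 194, and they were kept as separate libraries. The SD, SE and p-values that involve gun1-101 rab8d-2 count them as separate replicates, so they may understate its spread.

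The promoter sequences show what the 9 genes share apart from their levels, and they were read for the 250 bases before each annotated gene start (RefSeq, TAIR10.1 assembly, gene strand, 5′ to 3′). The RY core, spelled CATGCA and searched on both strands, was in 9 of 9 windows, against 8.36% of the 25176 windows of all genes that have one. The abscisic acid response core, spelled ACGTG and searched on both strands, was in 7 of 9 windows, against 23.5% of all. The G-box, spelled CACGTG, which holds that core, was in 6 of 9 windows, against 6.87% of all. The RY core and the abscisic acid response core stood together in 7 of 9 windows, against 2.28% of all. These are matches of letters, and binding was not measured. The following 5 windows are printed because they belong to both 12S globulins, an oleosin, the albumin with the most RY cores (SESA3) and the albumin with the most uneven level (SESA5). Capitals mark the RY, abscisic acid response and G-box letters.
CRA1: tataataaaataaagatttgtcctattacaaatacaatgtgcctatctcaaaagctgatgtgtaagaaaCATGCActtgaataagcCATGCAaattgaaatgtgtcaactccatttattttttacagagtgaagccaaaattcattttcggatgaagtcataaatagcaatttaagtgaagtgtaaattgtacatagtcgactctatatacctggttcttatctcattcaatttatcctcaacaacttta
CRU3: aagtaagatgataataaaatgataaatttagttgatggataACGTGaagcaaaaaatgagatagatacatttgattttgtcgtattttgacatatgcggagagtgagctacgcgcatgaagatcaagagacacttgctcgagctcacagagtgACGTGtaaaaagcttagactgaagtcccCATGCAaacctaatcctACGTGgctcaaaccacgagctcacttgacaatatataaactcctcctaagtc
OLEO1: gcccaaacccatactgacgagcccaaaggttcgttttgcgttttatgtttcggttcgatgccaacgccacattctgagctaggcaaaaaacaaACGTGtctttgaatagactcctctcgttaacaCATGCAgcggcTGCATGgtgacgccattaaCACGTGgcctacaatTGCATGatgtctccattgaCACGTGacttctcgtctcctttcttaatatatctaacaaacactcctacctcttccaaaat
SESA3: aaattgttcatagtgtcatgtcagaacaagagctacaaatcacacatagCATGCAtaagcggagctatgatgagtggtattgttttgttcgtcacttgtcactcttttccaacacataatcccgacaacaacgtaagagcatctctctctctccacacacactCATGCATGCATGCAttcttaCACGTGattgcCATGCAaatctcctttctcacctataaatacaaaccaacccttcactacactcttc
SESA5: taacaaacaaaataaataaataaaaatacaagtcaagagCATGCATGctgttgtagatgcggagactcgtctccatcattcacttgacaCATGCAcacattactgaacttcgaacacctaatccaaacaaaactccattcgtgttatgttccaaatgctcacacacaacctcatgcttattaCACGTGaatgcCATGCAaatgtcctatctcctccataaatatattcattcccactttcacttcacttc

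The window of CRA1, the major 12S globulin gene, is chr5:17758337-17758586 on the minus strand, and it has 2 RY cores and no ACGTG. The window of CRU3, another 12S globulin gene, is chr4:14087306-14087555 on the plus strand, with 1 RY core between ACGTG matches. The window of OLEO1, chr4:12900180-12900429 on the plus strand, holds 3 RY cores and 2 G-boxes. In SESA3, chr4:13611546-13611795 on the plus strand, 5 overlapping RY cores sit 74 to 87 bases before the start, just ahead of a G-box at 62 to 67 bases. In SESA5, chr5:22239188-22239437 on the minus strand, the only G-box is followed by an RY core. All 5 albumin genes have a G-box with an RY core on its downstream side, while OLEO2, like CRA1, has RY cores and no ACGTG. Of the 18 other storage and oil body genes in the table, 15 had an RY core and 13 had ACGTG, and of 26 LEA and desiccation genes 6 had an RY core and 23 had ACGTG. The RY core is thus common to the storage genes here, and ACGTG to both groups.

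**Figure D1:**
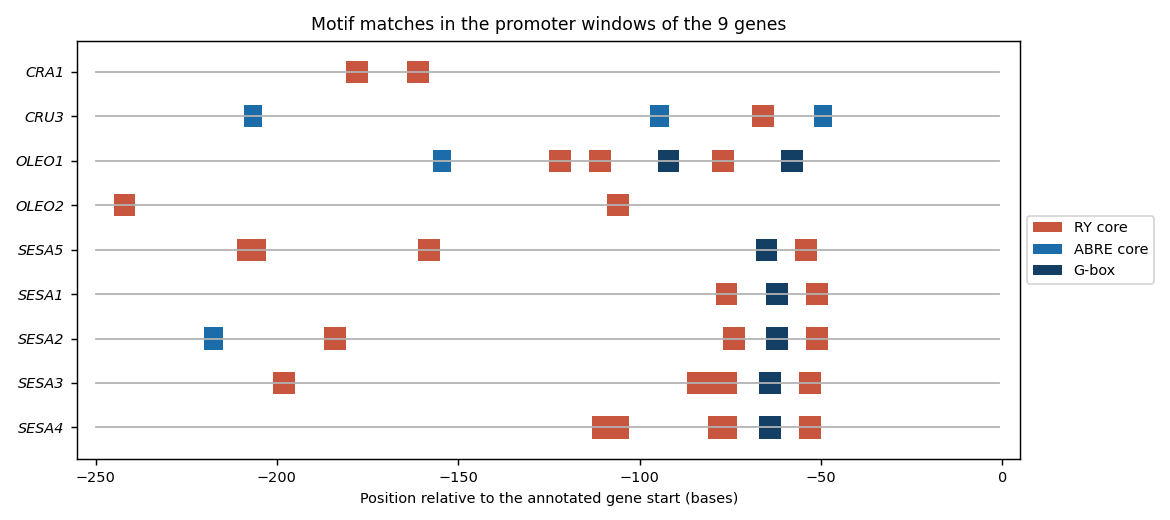
Motif matches in the 250 bases before the annotated start of the 9 genes, with the distance from the start in bases on the horizontal axis and 1 line per gene. Each of the 9 lines carries at least 1 RY core, and the lines of CRA1 and OLEO2 carry no ACGTG (abscisic acid response core or G-box).

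SESA1 to SESA4 lie side by side on chromosome 4, from 13607329 to 13614283, with no other gene in those 6955 bases. Each is a single exon on the plus strand, and their transcripts are 71.7% to 80.1% identical, with identical stretches of at most 49 bases. Reads from such stretches could be shared among the 4 genes by the authors' counting, so their separate values are less certain than their sum. SESA5, on chromosome 5 from 22238358 to 22239187, is 55.6% to 60.5% identical to them. CRA1 (chromosome 5, 17756238 to 17758336, 3 exons) and CRU3 (chromosome 4, 14087556 to 14089796, 4 exons) are 60.9% identical. OLEO1 (chromosome 4, 12900430 to 12901577) and OLEO2 (chromosome 5, 16173340 to 16174783) have 2 exons each and are 54.1% identical.

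Reads of the 9 genes were spread very unevenly over the 18 libraries. Their summed counts were 54, 58 and 10 in gun1-101 rab8d-2, 9, 1 and 436 in nac103-11 rab8d-2, 7672, 298 and 75 in rab8d-2, 774, 2176 and 1251 in gun1-101, 30, 163 and 179 in nac103-11, and 1127, 10141 and 232 in WT. WT replicate 2 and rab8d-2 replicate 1 were far above all others, and each was unlike the remaining replicates of its own genotype. All gun1-101 libraries had at least 774 counts, which no other genotype reached in all 3, and neither double mutant had more than 58 counts in any library other than nac103-11 rab8d-2 replicate 3. Even in WT replicate 2 the 9 genes made up 0.0441% of the counts. In root tips taken as bulk tissue, a smaller number of cells that hold these transcripts and less of the transcripts per cell cannot be told apart.

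**Figure D2:**
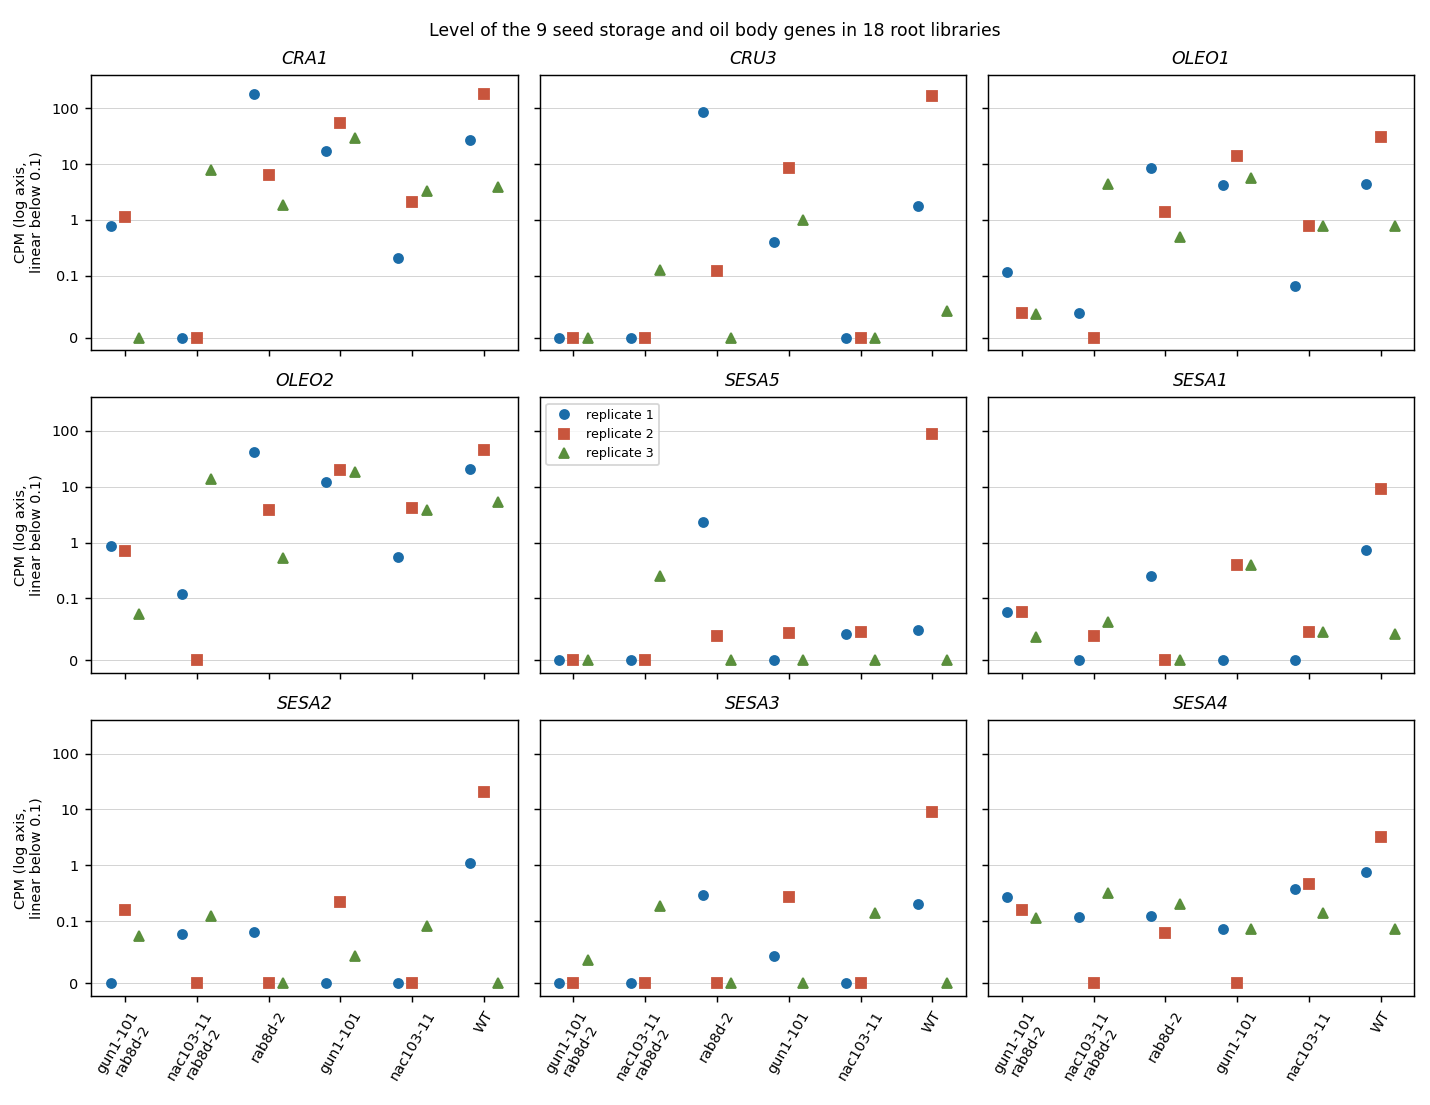
CPM of each of the 9 genes in the 18 libraries on a log axis that is linear below 0.1, with genotypes along the horizontal axis and 1 symbol per library. WT replicate 2 is the highest library for CRU3, OLEO1, OLEO2 and the 5 albumin genes, and rab8d-2 replicate 1 for CRA1 at 179 CPM.

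CRA1 had the most counts of the 9 genes, with a mean of 0.640 ± 0.581 CPM in gun1-101 rab8d-2, 2.65 ± 4.58 in nac103-11 rab8d-2, 62.6 ± 101 in rab8d-2, 33.3 ± 18.8 in gun1-101, 1.86 ± 1.55 in nac103-11 and 68.8 ± 93.4 CPM in WT (SD, n = 3 each). Its libraries read 0.784, 1.13 and 0 CPM in gun1-101 rab8d-2, 0, 0 and 7.94 in nac103-11 rab8d-2, 179, 6.43 and 1.82 in rab8d-2, 16.97, 53.9 and 29.1 in gun1-101, 0.210, 2.09 and 3.29 in nac103-11, and 26.7, 176 and 3.87 CPM in WT. The SD exceeded the mean in nac103-11 rab8d-2, rab8d-2 and WT. The highest library was 98.4-fold above the lowest in rab8d-2, 3.18-fold in gun1-101 and 45.4-fold in WT. All gun1-101 rab8d-2 libraries lay below all rab8d-2 and all gun1-101 libraries, and all nac103-11 libraries lay below all WT libraries.

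CRU3 was nearly an all-or-none transcript. It had 85.4 CPM in rab8d-2 replicate 1 and 164 CPM in WT replicate 2, and these libraries held 95.1% of its counts. It read 0.394, 8.47 and 1.01 CPM in gun1-101, 0.121 and 0 CPM in the other rab8d-2 libraries, and 1.79 and 0.043 CPM in the other WT libraries. No count of CRU3 was found in any gun1-101 rab8d-2 or nac103-11 library. A count of 0 allows up to 3 counts, which for the 3 libraries together is 0.0387 CPM for gun1-101 rab8d-2 and, for nac103-11, 0.0448 CPM. Against these limits CRU3 was at least 724-fold lower in gun1-101 rab8d-2 than in rab8d-2 (2062 counts), at least 84.1-fold lower in gun1-101 rab8d-2 than in gun1-101 (221 counts), and at least 1117-fold lower in nac103-11 than in WT (3086 counts). Each bound rests mostly on a single library: rab8d-2 replicate 1 held 2059 of the 2062 counts, gun1-101 replicate 2 held 189 of the 221, and WT replicate 2 held 3049 of the 3086.

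OLEO2 was the most evenly detected member, with at least 10 counts in 15 of 18 libraries. It read 0.863, 0.704 and 0.075 CPM in gun1-101 rab8d-2, 0.119, 0 and 13.9 in nac103-11 rab8d-2, 42.0, 3.90 and 0.527 in rab8d-2, 12.1, 20.2 and 18.5 in gun1-101, 0.547, 4.12 and 3.80 in nac103-11, and 20.4, 45.7 and 5.26 CPM in WT. In gun1-101 its libraries were close together, at 16.96 ± 4.29 CPM (SD, n = 3). All nac103-11 libraries were below all WT libraries and all gun1-101 rab8d-2 libraries below all gun1-101 libraries, while gun1-101 rab8d-2 and rab8d-2 overlapped. OLEO1, also highest in WT replicate 2, read 0.118, 0.039 and 0.038 CPM in gun1-101 rab8d-2, 0.040, 0 and 4.38 in nac103-11 rab8d-2, 8.38, 1.41 and 0.486 in rab8d-2, 4.24, 13.9 and 5.70 in gun1-101, 0.084, 0.788 and 0.788 in nac103-11, and 4.33, 30.5 and 0.782 CPM in WT. Below WT replicate 2 the order of libraries differed between the oleosins, with rab8d-2 replicate 1 next for OLEO2 and gun1-101 replicate 2 next for OLEO1. All gun1-101 rab8d-2 libraries were below all rab8d-2 and all gun1-101 libraries for OLEO1, while nac103-11 and WT overlapped.

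The 2S albumins were almost confined to WT replicate 2 among these libraries. SESA5 had 1640 counts there, at 88.3 CPM, out of 1705 in all 18 libraries. Its next highest value was 2.32 CPM in rab8d-2 replicate 1, and it was at 0 in 10 libraries. SESA2 read 20.3 CPM in WT replicate 2 and 1.09 CPM in WT replicate 1, and no more than 0.224 CPM elsewhere. SESA1 and SESA3 read 8.99 and 9.10 CPM in WT replicate 2, and at most 0.747 CPM in any other library. These 4 albumins had at least 10 counts in no more than 2 libraries each. SESA4 behaved differently: it peaked at 3.23 CPM in WT replicate 2, but it was at 0 in only 2 libraries and WT replicate 2 held 44.4% of its 135 counts. Outside WT it was highest in nac103-11, at 0.378, 0.463 and 0.139 CPM, all within a few counts of the limit that 3 counts set in a library (0.113 to 0.188 CPM). Its gun1-101 rab8d-2 libraries, at 0.275, 0.156 and 0.113 CPM, were all above the gun1-101 libraries, at 0.087, 0 and 0.088 CPM, which is a difference of 14 against 4 counts in all.

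Between genes, levels can be compared per transcript length with the authors' TPM. In WT replicate 2 the order was SESA5 at 87.4 TPM, CRA1 at 81.5, CRU3 at 73.4, OLEO2 at 40.4, OLEO1 at 27.5, SESA2 at 22.8, SESA1 at 10.6, SESA3 at 9.77 and SESA4 at 3.90 TPM. In rab8d-2 replicate 1 it was CRA1 at 109 TPM, CRU3 at 49.8, OLEO2 at 48.4, OLEO1 at 9.84 and SESA5 at 3.00 TPM, with the other 4 albumins at 0.41 TPM or less. SESA5 thus led in WT replicate 2 and was a minor transcript in rab8d-2 replicate 1. No other library of either genotype held as many reads of the 9 genes, so these orders describe 2 libraries and not 2 genotypes.

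The make-up of the reserve transcripts differed between these libraries by more than counting error. The 2S albumins took 0.965% of the member counts in rab8d-2 replicate 1 (95% exact Clopper-Pearson interval 0.758% to 1.21%) and 23.8% in WT replicate 2 (23.0% to 24.6%). The 12S globulins took 83.2% (82.4% to 84.0%) in rab8d-2 replicate 1 and 62.3% (61.3% to 63.2%) in WT replicate 2. Intervals cover counting error only. In gun1-101 the albumins took 0.388%, 0.965% and 0.959% of 774, 2176 and 1251 counts, against 5.06% of 1127 and 1.29% of 232 counts in WT replicates 1 and 3. Between the globulins, CRU3 took 32.3% of the sum of CRU3 and CRA1 in rab8d-2 replicate 1, 2.27%, 13.6% and 3.35% in gun1-101, and 48.3% in WT replicate 2. Libraries with more reserve reads thus had a larger share of CRU3 in gun1-101 as well, where replicate 2 was the highest in both.

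**Figure D3:**
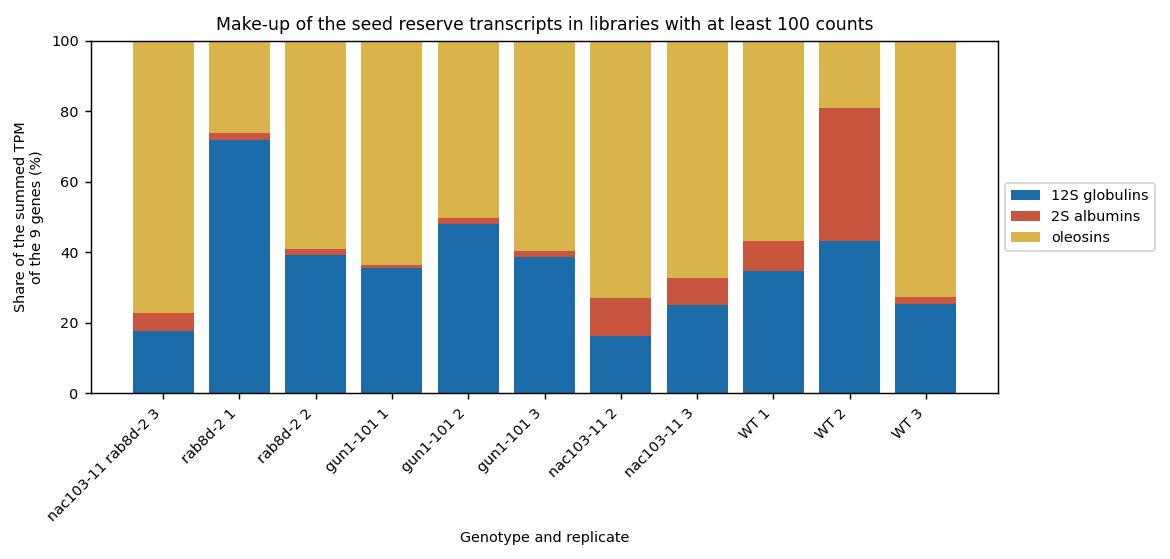
Share of the summed TPM of the 9 genes taken by 12S globulins, 2S albumins and oleosins, in percent, in the 11 libraries with at least 100 counts of the 9 genes. The albumin share is 37.6% in WT replicate 2 and no more than 10.9% in the other 10 libraries, and oleosins take 77.2% in nac103-11 rab8d-2 replicate 3.

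Over the 18 libraries, CRA1, OLEO1 and OLEO2 ran in parallel, with Pearson correlations of their log2 CPM between 0.951 and 0.967. CRU3 correlated with them at 0.757 to 0.829 and SESA4 at 0.291 to 0.337. These are descriptions over 18 libraries that share depth and preparation, and the same few libraries carry all of them.

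A filter that asks for enough counts in 3 libraries kept CRA1, CRU3, OLEO1 and OLEO2 and removed the 5 albumins, so fold changes exist for 4 of 9 members. The members nearest to its limit were CRU3, kept with at least 10 counts in 5 libraries, and SESA4, removed with at least 10 counts in 3 libraries. The 4 were fitted together with all genes, and all fold changes are log2. In gun1-101 rab8d-2 against rab8d-2 the fitted values were -6.61 ± 2.17 for CRA1, -5.61 ± 1.99 for OLEO1 and -4.81 ± 1.80 for OLEO2 (SE). In gun1-101 rab8d-2 against gun1-101 they were -5.70 ± 2.103 for CRA1, -6.83 ± 2.01 for OLEO1 and -4.95 ± 1.81 for OLEO2. These contrasts share the double mutant's libraries, and CRU3 had the bounds given above. Without rab8d-2 replicate 1 the median of the 4 against rab8d-2 was -3.14 in place of -6.11.

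In nac103-11 rab8d-2 against rab8d-2 the values were -4.65 ± 1.95 for CRA1, -9.62 ± 3.89 for CRU3, -1.30 ± 1.46 for OLEO1 and -1.77 ± 1.53 for OLEO2. Replicate 3 of this double mutant held 436 of its member counts, against 9 and 1 in the others, and without it the median of the 4 values was -10.1 in place of -3.21. Without rab8d-2 replicate 1 that median was -0.094. The value of CRU3 rests on 2 counts in the double mutant, both in replicate 3. Without replicate 3 the double mutant had 0 counts of CRA1 and CRU3, so the medians without it are set by the fit and are not measured differences. In nac103-11 rab8d-2 against nac103-11 the values were 0.43 ± 1.85 for CRA1, 1.33 ± 1.59 for OLEO1 and 0.69 ± 1.54 for OLEO2. The median of the 4 was 1.01, and it was 0.69 without CRU3, which had no count in nac103-11 and no usable bound. The median of the 4 turned to -0.95 on log2(TPM + 0.1) and to -4.96 without nac103-11 rab8d-2 replicate 3. Between the double mutants, gun1-101 rab8d-2 against nac103-11 rab8d-2, the values were -1.96 ± 2.00 for CRA1, -4.31 ± 2.04 for OLEO1 and -3.04 ± 1.74 for OLEO2, with a median of 2.26 without that replicate.

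Single mutants against WT gave smaller values except in nac103-11. In rab8d-2 the values were -0.14 ± 1.63 for CRA1, -0.96 ± 2.20 for CRU3, -1.79 ± 1.40 for OLEO1 and -0.62 ± 1.46 for OLEO2. In gun1-101 they were -1.04 ± 1.65 for CRA1, -4.07 ± 2.50 for CRU3, -0.57 ± 1.35 for OLEO1 and -0.49 ± 1.46 for OLEO2. Their medians, -0.79 in rab8d-2 and -0.81 in gun1-101, turned to 1.24 and 1.39 without WT replicate 2. Without rab8d-2 replicate 1 the median in rab8d-2 was -3.85, and on log2(TPM + 0.1) the median in gun1-101 was 0.21. In nac103-11 the values were -5.21 ± 2.00 for CRA1, -4.42 ± 1.62 for OLEO1 and -3.08 ± 1.60 for OLEO2, and the median of -4.82 was -2.61 without WT replicate 2.

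The median of the 4 fitted members can be set beside that of all 21004 genes fitted. It was -6.11 in gun1-101 rab8d-2 against rab8d-2 (all genes -0.05), -3.21 in nac103-11 rab8d-2 against rab8d-2 (-0.01), -6.26 in gun1-101 rab8d-2 against gun1-101 (0.05), 1.01 in nac103-11 rab8d-2 against nac103-11 (0.09) and -4.82 in nac103-11 against WT (-0.04). With CRU3 at its bound the median in gun1-101 rab8d-2 against gun1-101 was -6.05. In nac103-11 rab8d-2 against nac103-11, where CRU3 had no usable bound, the median without it was 0.69. Counts of members whose libraries did not overlap are given with the share of all fitted genes that separated in the same way. All libraries were lower for 4 of 9 members in gun1-101 rab8d-2 than in gun1-101 (31.0% of genes) and higher for 1, SESA4 (33.3%). All were lower for 2 of 9 in gun1-101 rab8d-2 than in rab8d-2 (16.3%), CRA1 and OLEO1, and for 3 of 9 in nac103-11 than in WT (5.88%), CRA1, CRU3 and OLEO2. No member separated in the other 5 pairwise contrasts, where the shares of genes higher and lower were 13.2% and 15.1% in rab8d-2 against WT, 5.97% and 7.0% in gun1-101 against WT, and 20.4% each way in nac103-11 rab8d-2 against nac103-11. They were 9.31% and 8.37% for nac103-11 rab8d-2 against rab8d-2, and 15.6% and 16.7% between the double mutants. The members were chosen from these levels, so no support is drawn from these counts.

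Genes whose log2 CPM ran most nearly parallel to the 4 fitted members over the 18 libraries came partly from the seed lists described next. Among 19262 genes with at least 1 CPM on average, the Pearson correlation was 0.977 for TIP3;1, an aquaporin of the protein storage vacuole, and 0.954 for AT2G28490, a vicilin-like cupin. Next came AT1G04560, an AWPM-19-like membrane protein, at 0.954, HVA22B at 0.949, AT3G03341 at 0.946 and AT3G54940 at 0.945. The LEA gene M17 was at 0.940, PER1, a seed peroxiredoxin, at 0.934, the oil body gene AT1G05510 (OBAP1A) at 0.931 and ATOEP16-2 at 0.930. Of these 10 genes, 6 belong to those lists. With the mean of each genotype taken out, the 10 correlations were 0.844 to 0.958, and 8 of the genes stayed within the first 100.

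The wider seed maturation programme was followed with 44 genes outside the 9, namely 18 storage and oil body genes and 26 genes of late embryogenesis abundant (LEA) proteins and desiccation. Of these, 34 passed the filter and were fitted. The filter asks for enough counts in 3 libraries, so a gene can be kept through the genotypes where it is high. AT2G25890, for example, had 403 counts in gun1-101 and 6 in gun1-101 rab8d-2. Such a gene can be called lower in a double mutant but hardly higher. No support is therefore drawn from the absence of rises, and the share of all genes is not a matched baseline. They were tested with edgeR's quasi-likelihood test and Benjamini-Hochberg adjustment over all 21004 genes. Their summed CPM correlated with that of the 9 members over the 18 libraries at 0.927 for storage genes and 0.894 for LEA genes (Pearson, log2 values), so they are not independent of the members' levels. The lists were also chosen with earlier results of these data known. Their calls and adjusted p are therefore given as a description, and no independent support is drawn from them.

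In gun1-101 rab8d-2 against gun1-101, 15 of 34 seed maturation genes fell and 0 rose, where 15.7% of all genes fell. The 15 were 7 of 15 storage and oil body genes and 8 of 19 LEA genes, and the median of the 34 was -3.66. AT2G25890, an oleosin family gene, had 0.235, 0 and 0 CPM in gun1-101 rab8d-2 and 4.02, 7.21 and 6.58 CPM in gun1-101. Its log2 fold change was -6.16 ± 1.60 (edgeR quasi-likelihood adjusted p = 0.0108). XERO1, a dehydrin, had 0.392, 0.235 and 1.24 CPM in gun1-101 rab8d-2 against 15.2, 15.8 and 15.4 CPM in gun1-101, a fall of -4.62 ± 0.82 (edgeR adjusted p = 0.00111). AT3G17520, a LEA gene, had 0.392, 0.626 and 0.377 CPM in gun1-101 rab8d-2 against 9.27, 12.6 and 22.4 CPM in gun1-101, a fall of -4.97 ± 1.31 (edgeR adjusted p = 0.0116). For each of these 3 genes the groups do not overlap, and the call held under every alternative tried. PER1 stood at -4.93 and the cupin AT4G36700 at -4.99 on the log2 scale (edgeR adjusted p = 0.0204 and 0.0159), and both calls were lost when single libraries were left out. RAB18, a dehydrin, fell by 5.09 (edgeR adjusted p = 0.0253), also lost without single libraries. The count of 15 lay between 6 and 11 with 1 library left out and was 23 without rab8d-2 replicate 1 and WT replicate 2, the libraries richest in the 9 members.

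In gun1-101 rab8d-2 against rab8d-2, 9 of 34 genes fell and 0 rose, where 1.68% of all genes fell. They were 2 of 15 storage and oil body genes and 7 of 19 LEA genes, and the median of the 34 was -4.45. AT2G28490 had 0.235, 0.117 and 0 CPM in gun1-101 rab8d-2 and 25.4, 1.81 and 0.324 CPM in rab8d-2, a fall of -6.23 ± 1.66 (edgeR adjusted p = 0.0473). RAB18 had 0.549, 0.352 and 0.264 CPM in gun1-101 rab8d-2 against 138.5, 1.01 and 0.81 CPM in rab8d-2, a fall of -6.90 ± 1.66 (edgeR adjusted p = 0.0325). Here the groups do not overlap, but rab8d-2 replicate 1 was far above the other rab8d-2 libraries. Falls were also called for AT4G36700 at -5.69, LEA4-1 at -5.78 and AT3G15670 at -5.62 (edgeR adjusted p = 0.0357, 0.0331 and 0.0381). Without rab8d-2 replicate 1, or without gun1-101 rab8d-2 replicate 1 or replicate 2, 0 of the 34 were called, and RAB18 then stood at -1.22, -7.22 and -6.83 on the log2 scale.

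In nac103-11 rab8d-2 against rab8d-2, 5 of 34 genes fell and 0 rose, all 5 of them LEA genes, where 1.26% of all genes fell. The median of the 34 was -3.56. RAB18 had 0.119, 0.198 and 1.13 CPM in nac103-11 rab8d-2, against the rab8d-2 values given above, a fall of -6.75 ± 1.66 (edgeR adjusted p = 0.0462), and the groups overlap. XERO1 had 0.237, 0.317 and 0.563 CPM in nac103-11 rab8d-2 against 13.3, 1.17 and 7.49 CPM in rab8d-2, a fall of -4.33 ± 0.85 (edgeR adjusted p = 0.0259), without overlap. AT4G36600, a LEA gene, fell by 5.72 (edgeR adjusted p = 0.0343). Without rab8d-2 replicate 1, 0 of the 34 were called. In nac103-11 rab8d-2 against nac103-11, 1 of 34 rose, the LEA gene AT2G18340 at 2.54 ± 0.78 (edgeR adjusted p = 0.0245), where 14.7% of all genes rose, and its levels of 0.316, 0.436 and 0.375 CPM in nac103-11 rab8d-2 against 0.042, 0.093 and 0.046 CPM in nac103-11 rest on 25 and 4 counts in all.

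None of the 34 was called by edgeR in the other contrasts. Shares of all genes in this paragraph are edgeR calls after adjustment. They are no baseline for counts at an unadjusted p or for DESeq2 calls, whose shares of all genes are not given. In nac103-11 against WT the 34 were all lower, with a median of -2.90, and edgeR called 0.00952% of all genes. At an unadjusted p below 0.05 there were 24 of the 34, and the DESeq2 Wald test called 2 of the 34. AT3G53040, a LEA gene with the smallest p among its list, was at -3.37 ± 0.85 (edgeR adjusted p = 0.652). In rab8d-2 against WT the median was 0.57 and 3 had an unadjusted p below 0.05, while 12.3% of all genes were called. In gun1-101 against WT the median was -0.24 and 1 did, while 0.019% of all genes were called. DESeq2 called 0 in both. In rab8d-2 against WT the median was -0.55 for 15 storage genes and 1.28 for 19 LEA genes, which was not tested as a difference. The LEA genes summed to 735, 41.7 and 58.9 CPM in rab8d-2 and 142, 220 and 121 CPM in WT, so rab8d-2 replicates 2 and 3 lay below all WT libraries and replicate 1 above them. Without rab8d-2 replicate 1, 6 of the 34 were called, all lower. OLEO5 had 73.6, 3.02 and 0.972 CPM in rab8d-2 and 3.28, 12.2 and 1.04 CPM in WT, so replicate 1 sets its direction. Between the double mutants, where 4.93% of all genes were called, 3 had an unadjusted p below 0.05 and DESeq2 called 1. For the interactions, which ask whether rab8d-2 acts differently in the gun1-101 or nac103-11 background, the medians were -3.83 and -0.16. In both, edgeR called 0 of the 34, and it called 0.195% and 0.00952% of all genes. At an unadjusted p below 0.05 there were 20 and 0 of the 34, and DESeq2 called 5 and 0.

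**Figure D4:**
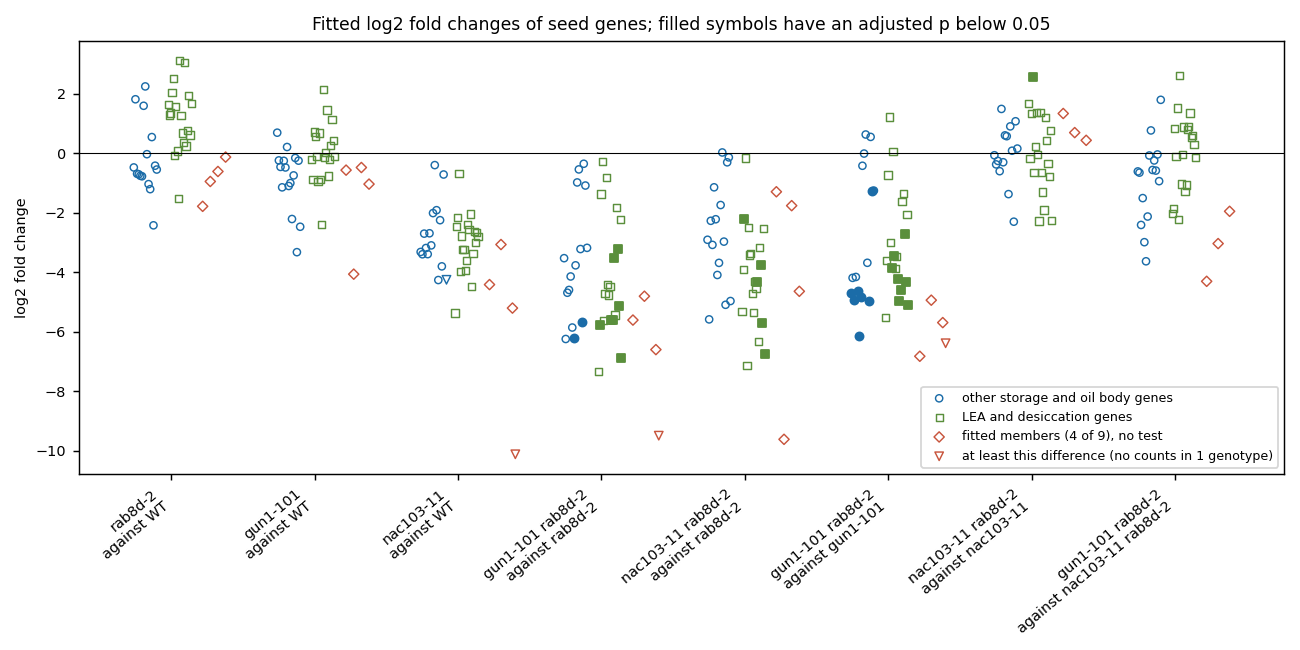
Log2 fold changes of 15 storage and oil body genes outside the 9, 19 LEA genes and the 4 fitted members in 8 pairwise contrasts, with filled symbols for an edgeR adjusted p below 0.05 (not marked for members) and triangles for bounds where 1 genotype had no count. The filled symbols lie below 0 in gun1-101 rab8d-2 against rab8d-2 (9 genes), nac103-11 rab8d-2 against rab8d-2 (5) and gun1-101 rab8d-2 against gun1-101 (15), and above 0 for 1 gene in nac103-11 rab8d-2 against nac103-11.

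The libraries that held most of the members did not hold all seed transcripts in the same proportion. The 26 LEA genes summed to 735 CPM in rab8d-2 replicate 1 and 220 CPM in WT replicate 2, while the 9 members summed to 318 and 546 CPM. RAB18 was at 138.5 CPM in rab8d-2 replicate 1 and 22.7 in WT replicate 2, and EM1, a LEA gene of the dry embryo, at 44.01 and 4.79 CPM. The vicilin-like PAP85 was at 49.9 and 9.80 CPM. In the opposite direction, M17 was at 16.8 CPM in rab8d-2 replicate 1 and 49.5 in WT replicate 2, the steroleosin HSD1 at 2.03 and 17.5 CPM, and the 12S globulin CRU2 at 0.041 and 3.88 CPM. HSD1 has a near-identical copy, so its reads may be split by the counting. In the genotypes other than rab8d-2 and WT, the LEA sum was below that of both these libraries: it was 19.9 to 22.2 CPM in gun1-101 rab8d-2, 10.5 to 45.8 in nac103-11 rab8d-2, 128 to 157 in gun1-101 and 11.9 to 31.3 CPM in nac103-11. The genes named in this paragraph for these 2 libraries were picked after their values were seen.

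**Figure D5:**
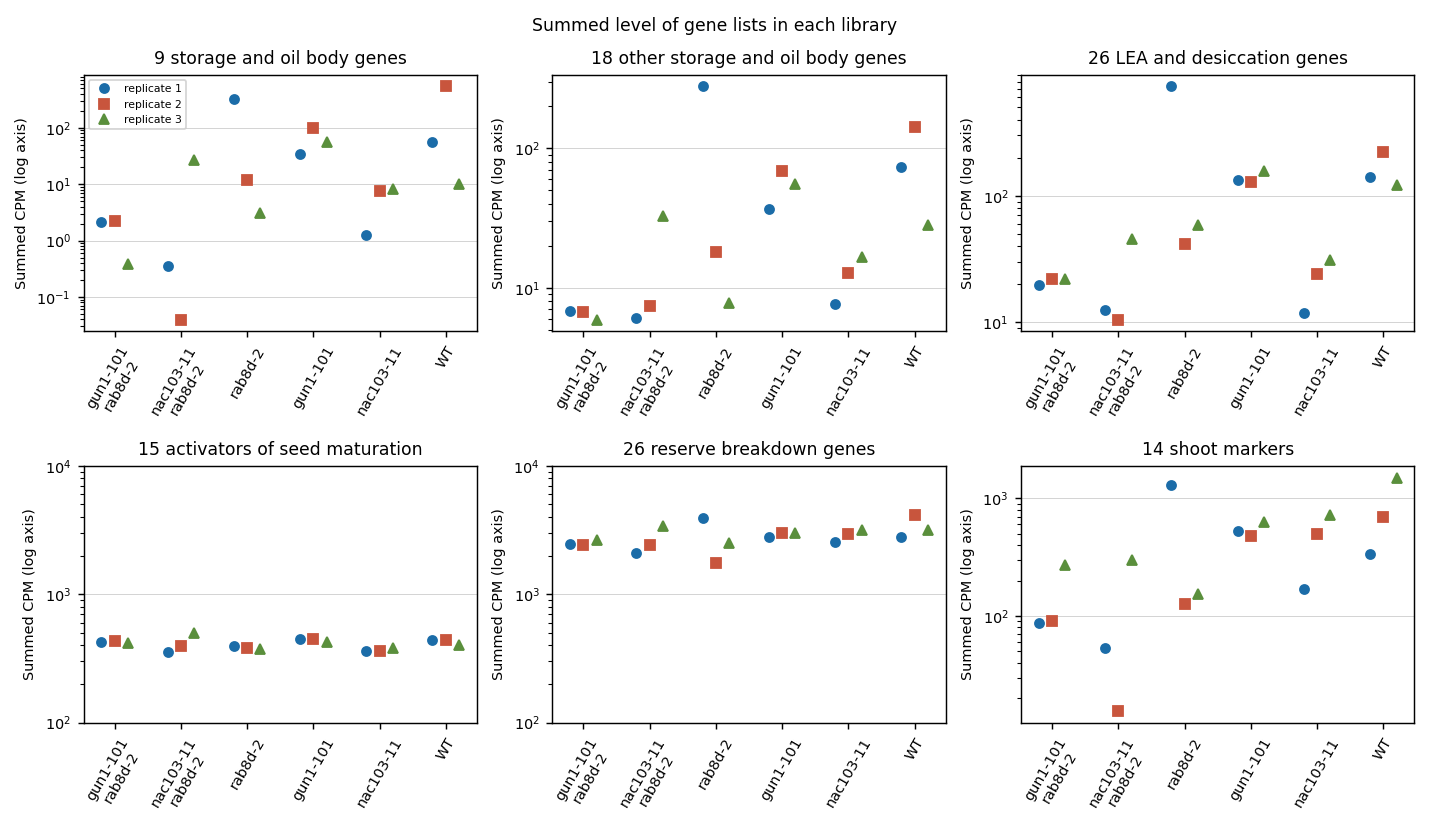
Summed CPM per library, on log axes, of the 9 members and of 5 gene lists, with genotypes along the horizontal axis and 1 symbol per library. The members run from 0.040 to 546 CPM and the LEA genes from 10.5 to 735 CPM, while the activators stay between 356 and 495 CPM and the reserve breakdown genes between 1756 and 4139 CPM.

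Of the activators of the seed programme, 15 of the 18 listed were in the table and 12 were fitted. LEC1 and LEC2 are not analysed here. FUS3 was at 0 to 0.121 CPM, DPBF2 at 0 to 0.313 and NF-YB6 at 0 to 0.549 CPM over the 18 libraries, which is within a few counts of 0. ABI3 had 0.275, 0.235 and 0.189 CPM in gun1-101 rab8d-2, 0.277, 0.238 and 0.438 in nac103-11 rab8d-2, and 3.82, 0.804 and 1.01 CPM in rab8d-2. Its log2 fold change against rab8d-2 was -2.98 in gun1-101 rab8d-2 and -2.58 in nac103-11 rab8d-2, and against gun1-101 it was -2.22 in gun1-101 rab8d-2 (edgeR adjusted p = 0.018, 0.0441 and 0.0175). The first 2 calls were lost without rab8d-2 replicate 1, among other alternatives, with values of -1.94 in gun1-101 rab8d-2 and -1.54 in nac103-11 rab8d-2. The third was lost without gun1-101 rab8d-2 replicate 2, at -2.23, without its replicate 3, at -2.09, and without gun1-101 replicate 3, at -2.11.

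ABI5 and the MADS factor AGL15 went the other way. ABI5 had 8.39, 8.61 and 6.34 CPM in gun1-101 rab8d-2 and 1.40, 1.48 and 2.11 CPM in gun1-101, a rise of 2.22 ± 0.50 (edgeR adjusted p = 0.00474). AGL15 had 10.9, 11.6 and 14.7 CPM in gun1-101 rab8d-2 and 3.50, 4.39 and 3.03 CPM in gun1-101, a rise of 1.77 ± 0.31 (edgeR adjusted p = 0.00109). In nac103-11 rab8d-2 against nac103-11, AGL15 rose by 1.90 and ABI5 by 1.498 (edgeR adjusted p = 0.000871 and 0.0314), and the call of ABI5 there was lost when single libraries were left out. HSFA9, a heat shock factor of seeds, rose by 2.12 in nac103-11 rab8d-2 against nac103-11 (edgeR adjusted p = 0.0296), with 1.19, 1.94 and 9.06 CPM in nac103-11 rab8d-2 against 0.589, 0.973 and 1.21 CPM in nac103-11. The groups overlap, and the call was lost at 0.76 without nac103-11 rab8d-2 replicate 3. In rab8d-2 against WT, EEL rose by 1.13 and BBM by 1.04 (edgeR adjusted p = 0.0116 and 0.0428), where 4.8% of all genes rose, and both calls were lost without rab8d-2 replicate 2. WRI1, the activator of oil synthesis, fell by 0.76 in gun1-101 rab8d-2 against rab8d-2 (edgeR adjusted p = 0.0358), a call lost when single libraries were left out. In all, 5 of 12 activators passed the test in gun1-101 rab8d-2 against gun1-101 (4 higher, 1 lower), where 28.3% of all genes did, and 5 of 12 were higher in nac103-11 rab8d-2 against nac103-11, where 14.7% of all genes rose.

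Repressors that keep the seed programme off after germination include VAL factors, PKL and Polycomb proteins. Of 18 fitted, 1 was called in the 10 contrasts by edgeR: BMI1C, a Polycomb subunit, fell by 1.52 in gun1-101 rab8d-2 against gun1-101 (edgeR adjusted p = 0.0424), where 15.7% of all genes fell, with 0.235, 0.274 and 0.415 CPM in the double mutant and 0.918, 0.538 and 1.23 CPM in gun1-101, and the call was lost when single libraries were left out. HD1, a histone deacetylase, had the smallest p of the list in gun1-101 rab8d-2 against rab8d-2, at -0.43 ± 0.14 (edgeR adjusted p = 0.0893).

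Of the genes that break reserves down, at least 25 of 26 had a count in every library. The 26 genes for lipases, beta-oxidation, the glyoxylate cycle and vacuolar processing summed to 2429 to 2636 CPM in gun1-101 rab8d-2, 2080 to 3423 in nac103-11 rab8d-2, 1756 to 3890 in rab8d-2, 2810 to 2983 in gun1-101, 2553 to 3167 in nac103-11 and 2792 to 4139 CPM in WT. In gun1-101 rab8d-2 against gun1-101, 7 of 26 fell and 0 rose (15.7% of all genes fell), and for nac103-11 rab8d-2 against nac103-11, 6 of 26 fell and 0 rose (14.3% fell). GAMMA-VPE, a vacuolar processing enzyme of vegetative tissue, had 75.1, 72.0 and 86.0 CPM in gun1-101 rab8d-2 and 373, 375 and 337 CPM in gun1-101, a fall of -2.22 ± 0.25 (edgeR adjusted p = 6.46e-05). In rab8d-2 against WT it had 136, 73.9 and 143 CPM in rab8d-2, with 281, 427 and 311 CPM in WT, a fall of -1.53 ± 0.24 (edgeR adjusted p = 0.00252), the only call of the 26 in that contrast, where 7.5% of all genes fell. PKT1, a thiolase of beta-oxidation also named KAT5, had 3.88, 3.29 and 4.11 CPM in gun1-101 rab8d-2 and 30.7, 16.4 and 12.5 CPM in rab8d-2, a fall of -2.40 ± 0.32 (edgeR adjusted p = 0.00138). It fell by 2.36 in nac103-11 rab8d-2 against rab8d-2 (edgeR adjusted p = 0.00346), without overlap of libraries. No gene of the list was called higher in the 10 contrasts.

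Markers of other tissues moved with some of these values. The 14 shoot markers, for Rubisco and photosystem proteins, summed to 87.2, 90.4 and 273 CPM in gun1-101 rab8d-2, 53.7, 15.6 and 298 in nac103-11 rab8d-2, 1286, 126 and 154 in rab8d-2, 525, 478 and 624 in gun1-101, 169, 499 and 725 in nac103-11, and 334, 688 and 1503 CPM in WT. All 14 were fitted. rab8d-2 replicate 1 was the highest rab8d-2 library for both shoot markers and members, and nac103-11 rab8d-2 replicate 3 the highest of its genotype for both, while WT replicate 3 was highest for shoot markers and lowest of WT for members. The shoot sum correlated with the member sum at 0.771 over the 18 libraries (Pearson, log2 values). Such a correlation was not particular to shoot markers. It was 0.671 for reserve breakdown genes, 0.656 for seed coat and endosperm markers, 0.587 for root markers, 0.470 for activators and -0.679 for repressors. All 14 shoot markers had log2 fold changes below 0 in both double mutants against rab8d-2 and against gun1-101 or nac103-11. The shares of all genes set beside them are for adjusted calls. No share of all genes is given for an unadjusted p below 0.05 or for a fold change below 0, so those counts have no baseline here. In gun1-101 rab8d-2 against rab8d-2 their median was -1.41, edgeR called 0 (1.68% of all genes fell) and 5 had an unadjusted p below 0.05, and against gun1-101 the median was -1.74, with 2 called lower (15.7% of all genes) and 3 at that p. In nac103-11 rab8d-2 against rab8d-2, where the 5 LEA genes fell, the median was -2.35, edgeR called 0 (1.26% of all genes fell) and 5 had an unadjusted p below 0.05, and against nac103-11 the median was -2.53, with 2 called lower (14.3% of all genes) and 6 at that p. The 8 seed coat and endosperm markers summed to 56.5 to 73.5 CPM in gun1-101 rab8d-2, 41.1 to 68.4 in nac103-11 rab8d-2, 54.6 to 77.5 in rab8d-2, 77.4 to 85.8 in gun1-101, 77.6 to 82.3 in nac103-11 and 80.9 to 83.1 CPM in WT. BAN and TT12, which mark the seed coat, were at 0 to 0.188 and 0 to 0.249 CPM. Their low level did not hold for the whole list. MAN7 had 26.5, 16.97 and 24.9 CPM in rab8d-2, and TT10 had 6.05, 8.41 and 7.13 CPM in nac103-11 rab8d-2. Of the 6 fitted, 3 fell and 1, TT10, rose in gun1-101 rab8d-2 against gun1-101 by edgeR, where 15.7% of all genes fell and 28.3% were called in either direction. The endosperm genes EPR1 and EXPA2 fell in gun1-101 rab8d-2 against gun1-101 (edgeR adjusted p = 0.0214 and 0.022). EPR1 had 0 counts in the double mutant and 0.044, 5.51 and 0.132 CPM in gun1-101, and its call was lost without gun1-101 replicate 2. EXPA2 had 0, 0.078 and 0.038 CPM in gun1-101 rab8d-2, with 0.962, 0.806 and 3.11 CPM in gun1-101, and its call was lost without gun1-101 replicate 3. The part of shoot, seed coat or endosperm material in the members' levels was not tested.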

How the data were processed

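RNA-seq of Arabidopsis root tips was analysed in 18 libraries, 3 for each of 6 genotypes, grouped by the labels. The authors deposited expected counts and TPM per gene, made with RSEM 1.3.1 on TAIR10, per the submitters' processing notes; other steps are not given in the sources used here. Expected counts were rounded, since 19.6% of them lay over 1e-06 from a whole number. The deposited TPM columns reach 67.1% to 79.5% of the full TPM total, and they were used to compare genes within a library. The authors' columns of genotype means were not used. All 25177 genes matched RefSeq, and promoters and coordinates come from its TAIR10.1 assembly.

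Counts were fitted with edgeR 4.0.16 in R 4.3.3 (filterByExpr, which kept 21004 genes and removed 4173; TMM factors of 0.706 to 1.17; robust quasi-likelihood, 1 term per genotype over all 18 libraries). A gene was called where its p, adjusted by Benjamini-Hochberg over all genes tested, was below 0.05. CPM are TMM-scaled. The SE of a log2 fold change is its size divided by the square root of F. Total counts of 22625981 to 23090995 put 3 counts at 0.113 to 0.188 CPM in a library; such limits and the exact binomial intervals cover counting error only. Tables and figures were made with Python 3.11.15, numpy 2.4.6, scipy 1.17.1 and matplotlib 3.10.9. The fit was also run on simulated counts with a fixed dispersion and with altered genes well above 0 CPM. Those counts lack the wide spread between replicates of the seed genes, so no support for calls on them is drawn from that run. Correlations between members used log2(CPM + 0.05).

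Apart from the mutated genes, most genes other than members are named by a rule. It takes, in each list and contrast, up to 3 called genes with the largest change, or the smallest p where none was called. It also takes the 10 genes most like the fitted members. EM1, PAP85, CRU2, FUS3, DPBF2, NF-YB6, BAN and TT12 are named outside this rule, and not every gene that it selects is printed. The members and lists were chosen with earlier results of these data known. Alternatives were DESeq2 1.42.0 size factors and Wald test, no filter, log2(TPM + 0.1), the compared libraries only, libraries left out, and the replicate number as a block. Same-numbered libraries deviated together at over 0.1 in all 3 pairs for gun1-101 rab8d-2 and gun1-101 alone (0.12, 0.107 and 0.185).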

Additional observations from a re-analysis of the deposited data

How the results depend on the processing

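Counts are of called genes among the 34 fitted seed maturation genes, and medians are of the log2 fold changes of the 4 fitted members. With 1 library left out, the count was 0 to 6 in rab8d-2 against WT (median -3.85 to 1.24), 0 in gun1-101 against WT (-1.41 to 1.39), 0 for nac103-11 against WT (-5.37 to -2.61), then 0 to 19 for gun1-101 rab8d-2 against rab8d-2 (-6.65 to -3.14), 0 to 15 in nac103-11 rab8d-2 against rab8d-2 (-10.1 to -0.094), 6 to 11 in gun1-101 rab8d-2 against gun1-101 (-6.69 to -5.63), 0 to 2 in nac103-11 rab8d-2 against nac103-11 (-4.96 to 1.62) and 0 between the double mutants (-3.49 to 2.26). It was 0 to 2 for the gun1-101 interaction (-7.47 to -1.59) and 0 for the nac103-11 interaction (-3.79 to 4.72).

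Without both WT replicate 3 and nac103-11 rab8d-2 replicate 3, the counts in the same order were 2, 1, 1, 20, 3, 19, 3 and 0, with 3 for the gun1-101 interaction and 0 for the nac103-11 interaction. The medians were then -10.1 in nac103-11 rab8d-2 against rab8d-2, -4.96 against nac103-11, 2.26 between the double mutants and -3.27 for the nac103-11 interaction. CRA1 and CRU3 had 0 counts in the nac103-11 rab8d-2 libraries that were left. These medians, and those above without nac103-11 rab8d-2 replicate 3, are therefore set by the fit and are not measured differences. Without both WT replicate 2 and rab8d-2 replicate 1, an alternative chosen after seeing the data, the count was 1 in rab8d-2 against WT, 0 in both double mutants against rab8d-2 (medians -3.16 with gun1-101 and -0.17 with nac103-11), 23 for gun1-101 rab8d-2 against gun1-101, then 3 for nac103-11 rab8d-2 against nac103-11. With the compared libraries only, the counts were 0 in both double mutants against rab8d-2, 25 for gun1-101 rab8d-2 against gun1-101, then 0 for nac103-11 rab8d-2 against nac103-11. The DESeq2 Wald test called 2 for nac103-11 against WT, then 20 for gun1-101 rab8d-2 against rab8d-2, 15 in nac103-11 rab8d-2 against rab8d-2, 2 in nac103-11 rab8d-2 against nac103-11, 1 between the double mutants and 5 for the gun1-101 interaction. Without the filter on low counts, 1 was called in rab8d-2 against WT, then 3 for nac103-11 rab8d-2 against rab8d-2. On log2(TPM + 0.1) the median was -3.48 in gun1-101 rab8d-2 against rab8d-2 and -0.15 between the double mutants, and it changed sign to -0.95 in nac103-11 rab8d-2 against nac103-11 and to 0.21 in gun1-101 against WT. The cause was not tested.

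With the replicate number as a block, the count was 12 in gun1-101 rab8d-2 against gun1-101. There same-numbered libraries deviated together in all 3 pairs, but weakly (0.12, 0.107 and 0.185). No label states that the numbers pair the libraries. In the other contrasts same-numbered libraries did not deviate together in all 3 pairs, though single pairs reached 0.461. There the block gave 2 in gun1-101 rab8d-2 against rab8d-2, 1 in nac103-11 rab8d-2 against rab8d-2, 1 in nac103-11 rab8d-2 against nac103-11 and 0 in the rest. Depth limits the albumins most, since outside WT replicate 2 most of their values rest on fewer than 10 counts.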
